A study of Mus musculus with 12 samples.

Results

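Fasted livers of mice labelled Nts-/- were compared with fasted livers of mice labelled Nts+/+. The comparison holds 6 of the 12 livers that were sequenced, namely mice 284, 290 and 295 (Nts-/-) and mice 265, 282 and 322 (Nts+/+), which were taken by their genotype and feeding labels alone. All were females of 4 months, sex- and age-matched littermates kept on normal chow, and each had gone without food for 22 h. Nts-/- mice carry a whole-body deletion of the gene for neurotensin, so no single tissue is targeted. The other 6 livers came from fed mice of the same genotypes, again 3 of each. Every library carried the same batch label, and each was made from total RNA of 1 liver. In bulk RNA of this kind, fewer cells of a type and less RNA per cell cannot be told apart.

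Neurotensin is a peptide of the brain and of enteroendocrine cells in the small intestine, where fat in the meal releases it. It acts through the G protein-coupled receptors Ntsr1 and Ntsr2, and it also binds sortilin (Sort1), a sorting receptor that hepatocytes use in handling lipoproteins. During a fast the liver uses up its glycogen, makes glucose from lactate, glycerol and amino acids, burns fatty acids and exports ketone bodies, while lipogenesis, cholesterol synthesis and the growth hormone to IGF1 axis are turned down. The question put to the data was which genes, pathways and cell type markers differed by genotype in that state.

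Expression was read from the RSEM counts of each gene, scaled here for depth by the TMM method and given as CPM, a count scaled to a common library size. The 6 fasted libraries held 23040691 to 45273069 counts, with mouse 295 the deepest, so that 3 counts correspond to between 0.0663 and 0.130 CPM of the total. Of 48795 genes in the table, 13812 had enough counts to test. Hepatocyte markers led every library: Alb, serum albumin, stood at 111836, 110179.7 and 97002 CPM in Nts+/+ livers and at 102879.8, 94424 and 96324 CPM in Nts-/- livers. Among the 6 libraries, mouse 265 stood apart from the other 5 on the first principal component, which carried 26.0% of the variance. Of 11690 genes with a mean of at least 1 CPM, 199 were at least 2-fold away from both other mice of the group in mouse 265 and 201 in mouse 322, against 96 to 117 in the other 4 mice.

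Counts on the deleted gene went against the labels. Nts (chr10:102481760-102490418, GRCm38) had 0, 0 and 0 counts in the Nts+/+ fasted livers and 12, 4 and 18 counts in the libraries labelled Nts-/-. The same held in fed livers, with 0, 0 and 0 counts against 46, 40 and 15. On the fasted libraries this is at least 3.51-fold higher under the Nts-/- label, against a floor of 3 counts in each Nts+/+ library. Which part of the gene these reads cover is not given by a table of counts per gene. For this reason the groups are named by their labels throughout, and every direction below is that of the libraries labelled Nts-/- against those labelled Nts+/+. Were the labels exchanged, the sign of every difference below would turn, and this was not tested. Ntsr1 had 0 counts in all 12 livers, which allows no more than the floor of 3 counts in each, and Ntsr2 had 0 counts in the 6 fasted livers. Sort1 (chr3:108284082-108361511) stood at 10.7, 10.3 and 9.57 CPM in Nts+/+ livers and 9.07, 6.75 and 5.24 CPM in Nts-/- livers. All 3 Nts-/- values lay below the Nts+/+ values. The log2 difference was -0.55 ± 0.22 (SE; 95% interval -1.03 to -0.07), and in fed livers it was 0.05. Sorl1, a related sorting receptor that also binds neurotensin, stood at 1.76, 2.54 and 1.87 CPM against 1.51, 2.47 and 2.86 CPM (0.16 ± 0.36), with overlap, and was named after its values were seen. Of the 10 tested genes of the list of neurotensin, its receptors and its peptidases, the only other one at an unadjusted p under 0.05 was Ace, a peptidase better known for angiotensin (-0.86), and the list's median was -0.05.

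No gene passed an adjusted p of 0.05 between the genotype labels in fasted livers (edgeR's quasi-likelihood test with Benjamini-Hochberg adjustment, 0.00% of 13812 genes), and the smallest adjusted p was 0.917. An unadjusted p below 0.05 was found for 685 genes (4.96%), 323 higher and 362 lower in Nts-/- livers (2.34% and 2.62%), where 690.6 would be present if every p value were equally likely. DESeq2 counted 719 genes at that level and 1 past an adjusted p of 0.05. The levels of the 3 Nts-/- mice all lay above those of the 3 Nts+/+ mice for 730 genes (5.29%) and all below for 950 genes (6.88%). As a yardstick of what the same model calls, fasting alone changed 2501 genes in Nts+/+ livers at an adjusted p under 0.05 (18.1%). The genes below are therefore described by their values. Differences are log2 fold changes ± SE with 3 mice in each group, listed with the Nts+/+ mice 265, 282 and 322 first and the Nts-/- mice 284, 290 and 295 second. The unadjusted p only orders the genes: the adjusted p of each gene described below lay between 0.917 and 1.00 in edgeR, and none is a call.

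**Figure D1:**
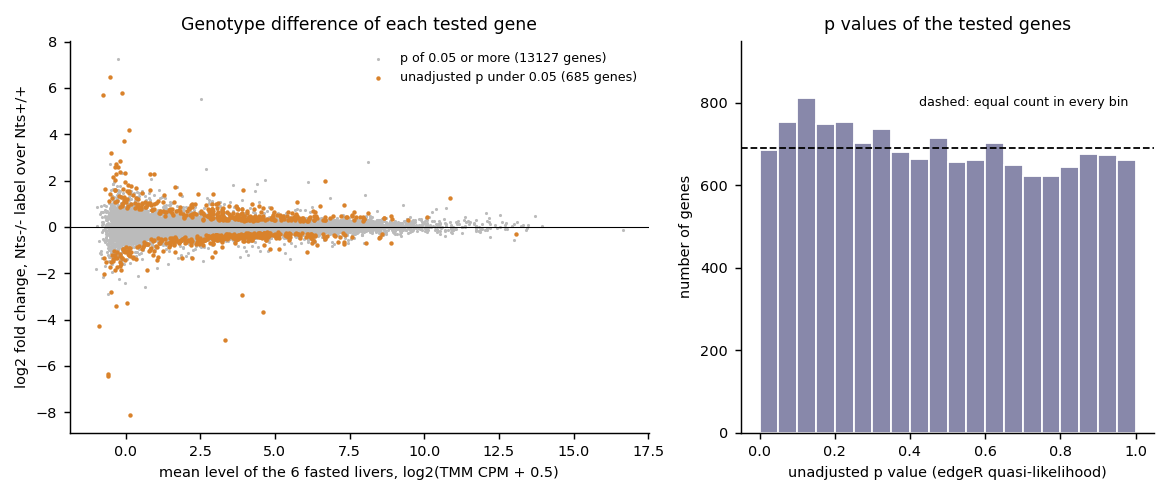
Left, log2 fold change of each of the 13812 tested genes (Nts-/- label over Nts+/+, fasted) against its mean level in the 6 fasted livers, on a log2 scale; orange points are the 685 genes with an unadjusted p under 0.05. Right, number of genes in each of 20 bins of the unadjusted p value, where the dashed line is the 690.6 genes of equal bins and the lowest bin holds 685.

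The precision of the comparison can be stated gene by gene. The median standard error of a log2 fold change was 0.19, and the median half-width of its 95% interval 0.41. For 10741 genes (77.8%) the whole interval lay inside a 2-fold difference in either direction, and for 6901 genes inside a 1.5-fold difference. A log2 fold change of more than 1 in size was fitted for 312 genes. The median over all genes was -0.01, with 6676 genes above 0 and 7136 below.

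A pair of genes passed an adjusted p of 0.05 under an alternative fit. Med12l (chr3:59005825-59318682), a paralog of the Mediator subunit Med12, stood at 4.46, 4.83 and 4.28 CPM in Nts+/+ livers and at 2.34, 1.95 and 1.18 CPM in Nts-/- livers. The groups were well apart, with a log2 difference of -1.34 ± 0.24 (SE; interval -1.85 to -0.82); no other gene that met the naming rule had a smaller unadjusted p. DESeq2 gave it an adjusted p of 0.0101, against 0.917 in edgeR. In fed livers its difference was -0.16. The genes P2ry12, P2ry13, P2ry14 and Igsf10 overlap its span, and since the strand of the counting is not stated, reads of overlapping genes may be shared. Their own log2 differences were 0.05, 0.09, -0.32 and 0.87.

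Klkb1 (chr8:45269671-45308466), which encodes plasma prekallikrein, had the widest gap of any gene named here apart from Nts. It had 458, 403 and 750 counts in Nts+/+ livers and 12, 20 and 22 counts in Nts-/- livers, a log2 difference of -4.86 (interval -9.05 to -0.67). With the 6 fasted libraries fitted on their own its adjusted p was 0.000425. In fed livers, however, counts of 0 occurred under both labels: 250, 593 and 0 in Nts+/+ livers and 1133, 398 and 0 in Nts-/- livers. A second row of the table, with no symbol, overlaps it (chr8:45266689-45294859) and held 4327, 5577 and 7312 counts in Nts+/+ fasted livers and 5133, 4574 and 11879 in Nts-/- fasted livers. Summed over both rows the levels were 227, 198 and 219 CPM against 236, 199 and 281 CPM, and these overlap between the groups. The difference on the Klkb1 row alone is therefore uncertain, since the counting could have split reads of the same gene between the rows.

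By the naming rule, the 12 higher and 12 lower genes with the smallest p were listed among genes with a mean of at least 1 CPM, and the plot of these 24 genes by mouse shows each one. The 12 higher genes had log2 differences between 0.47 and 1.05. Fdxr, the ferredoxin reductase that passes electrons to mitochondrial P450 enzymes, stood at 6.45, 4.79 and 6.21 CPM against 9.02, 8.70 and 12.4 CPM (0.80 ± 0.18). Abcc6, a hepatic efflux transporter that prevents ectopic calcification, stood at 73.2, 64.7 and 60.7 CPM against 84.2, 91.8 and 100.2 CPM (0.48 ± 0.11). Nlrp6, an inflammasome sensor, stood at 46.7, 38.4 and 43.0 CPM against 56.6, 61.0 and 59.7 CPM (0.47 ± 0.12). In none of these do the groups overlap. Lsm3 and Lsm7, subunits of the Sm-like rings that bind U6 RNA and mRNA, were both on the list: Lsm3 at 3.27 to 3.77 CPM against 5.27 to 5.54 CPM, and Lsm7 at 6.74 to 7.16 CPM against 9.80 to 11.1 CPM. The remaining 7 were Dqx1, Ugp2, Zmynd15, Mtx3 (an outer mitochondrial membrane protein), Tha1 (threonine aldolase), Rsad2 and Tmem25, and Zmynd15 had the largest difference, 0.76 CPM ± 0.06 against 1.58 CPM ± 0.24 (mean ± SD of 3 mice). Zmynd15 overlaps Cxcl16, so its reads may be shared.

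The 12 lower genes had log2 differences between -1.34 and -0.43. After Med12l, Zfp970, a zinc finger gene of a cluster of near-identical copies on distal chromosome 2, stood at 12.3, 7.11 and 11.2 CPM against 4.63, 5.41 and 4.51 CPM (-1.07 ± 0.22). Reads of such copies can be divided between them, so its value is uncertain. Mug2, a murinoglobulin and thus a secreted protease inhibitor, stood at 338, 273 and 370.4 CPM against 215, 225 and 164 CPM (-0.70 ± 0.18). It too has close paralogs. Cbr1, a carbonyl reductase, stood at 167, 120.1 and 213 CPM against 102, 110.3 and 107 CPM (-0.65 ± 0.18). Slc3a1, the heavy subunit of the cystine transporter, stood at 37.1, 25.3 and 30.9 CPM against 15.9, 14.3 and 23.2 CPM (-0.80 ± 0.22). The others were Zfp280b, Dst (a cytoskeletal linker), Cxx1b, Ahctf1 (a nucleoporin), Myo1c (an unconventional myosin), Tmco4 (-0.52, or -0.27 without mouse 282) and Il1r1, the signalling receptor of interleukin 1.

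**Figure D2:**
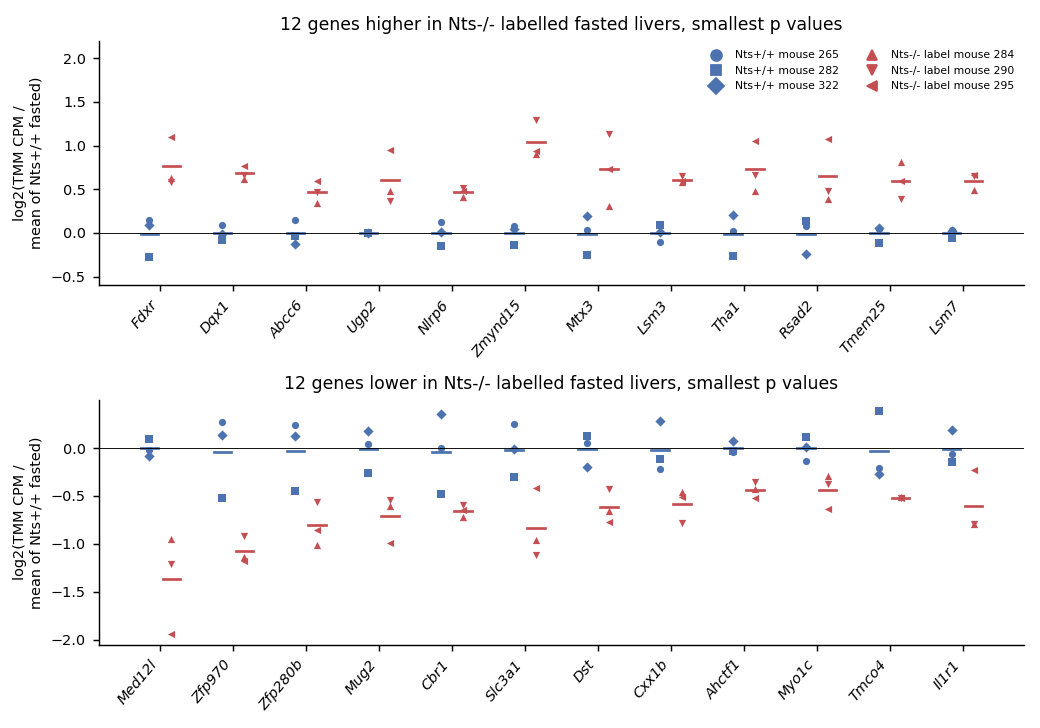
Level of the 12 higher and 12 lower genes in each of the 6 fasted livers, as log2 of CPM over the mean of the 3 Nts+/+ fasted livers; symbols mark mice, blue is Nts+/+, red is the Nts-/- label and bars are group means. The groups do not overlap for any of the 24 genes, which were chosen for a small p.

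Fed livers come from other mice, whose levels did not enter the fasted difference of these 24 genes, although the spread behind each p was estimated over all 12 mice. Of the 12 higher genes, 8 were also higher in fed Nts-/- livers, and of the 12 lower genes, 5 were also lower. Among all 13812 tested genes, 7160 were higher and 6651 lower in fed Nts-/- livers. An unadjusted p under 0.05 in fed livers was reached by 2 of the 12 higher genes and 1 of the 12 lower genes, against 876 of all tested genes (6.34%), and all 3 pointed the same way as in fasted livers. Dqx1, a helicase-like gene, stood at 5.84, 5.16 and 5.40 CPM against 8.38, 8.66 and 9.31 CPM in fasted livers and differed by 0.51 in fed livers. Rsad2 differed by 0.66 in fed livers. Il1r1 stood at 29.3, 27.5 and 34.6 CPM against 17.6, 17.6 and 26.1 CPM in fasted livers, a difference of -0.57, and by -0.62 in fed livers.

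The pathways were described with 36 lists of genes and the cell types with 18 lists, each given by its counts and its median log2 difference. Beside them stand the values over all tested genes given above, a median of -0.01, 4.96% at an unadjusted p under 0.05, and groups that do not overlap for 5.29% (higher) and 6.88% (lower). No member of any list passed an adjusted p of 0.05. List medians ranged from -0.18 to 0.32 over the 36 pathway lists, with 15 above 0. For 18 of the 36, leaving out 1 mouse at a time gave medians on both sides of 0.

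Glycogen is built from UDP-glucose, which Ugp2 makes, and glycogen synthase 2 (Gys2) adds it to the chain. Ugp2 (chr11:21321138-21371201) stood at 217, 217 and 216 CPM in Nts+/+ livers and at 303, 279 and 419 CPM in Nts-/- livers, 1.54-fold higher with a log2 difference of 0.62 ± 0.15 (SE; interval 0.29 to 0.96). Gys2 stood at 131, 147 and 157 CPM against 153, 225 and 211 CPM (0.44 ± 0.15), where mouse 284 lay within the Nts+/+ range. Gckr, a regulatory protein of hepatic glucose use, stood at 82.2, 57.8 and 50.8 CPM against 85.8, 98.8 and 113 CPM (0.64 ± 0.22), with mouse 265 close to the lowest Nts-/- mouse. In fed livers the differences of these 3 genes were -0.09, -0.12 and -0.01. These were the only 3 of the 24 tested genes of the glycolysis, fructose and glycogen list with an unadjusted p under 0.05, all higher, and the median of the list was 0.04.

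In gluconeogenesis, Fbp1, fructose-1,6-bisphosphatase, stood at 1032, 817 and 896 CPM against 1197, 1152 and 1394 CPM (0.45 ± 0.15), with no overlap. The list's median was 0.13 over 20 genes, of which 14 lay above 0 and Fbp1 alone had an unadjusted p under 0.05. The rate-setting enzymes were not separated. Pck1 stood at 2339, 3043 and 2878 CPM against 3189, 2263 and 4074 CPM (0.21, interval -0.88 to 1.29), and G6pc at 762, 433 and 709 CPM against 1078, 429 and 622 CPM (0.16, interval -0.51 to 0.83). Ppargc1a, the coactivator of the fasting programme, was even in Nts+/+ livers at 10.8, 10.3 and 11.0 CPM and scattered in Nts-/- livers at 6.78, 25.0 and 13.5 CPM (0.49, interval -0.24 to 1.22). Without mouse 290 the difference for Ppargc1a was -0.07.

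**Figure D3:**
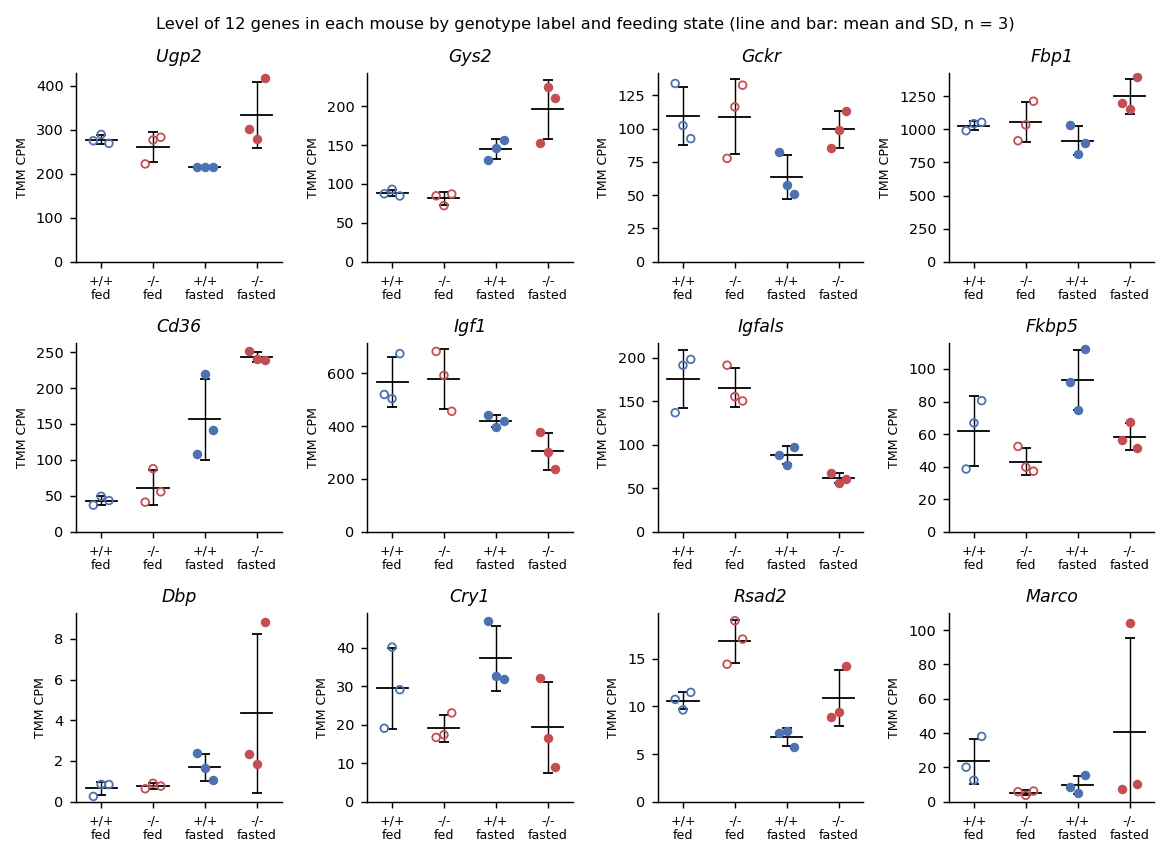
CPM of 12 genes in each of the 12 livers by genotype label and feeding state; open circles are fed and filled circles fasted mice, and line and bar are the mean and SD of 3 mice. Ugp2, Fbp1, Igfals and Fkbp5 were separated in fasted livers, while the highest values of Dbp and Marco in fasted Nts-/- livers came from 1 mouse each.

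For fatty acid handling, Cd36, the long-chain fatty acid transporter, stood at 109, 219 and 141 CPM in Nts+/+ livers and at 252, 240.1 and 239 CPM in Nts-/- livers. The 3 Nts-/- values were close together and above all Nts+/+ values. The log2 difference was 0.64 ± 0.28 (interval 0.04 to 1.24), between 0.43 and 0.97 when each mouse was left out, and 0.51 in fed livers. Cd36 was the only 1 of 24 genes of fatty acid uptake and activation with an unadjusted p under 0.05, and the list's median was 0.00. Fatty acid oxidation had a median of 0.12, with 25 of 31 genes above 0, 4 without overlap and 1 with an unadjusted p under 0.05, namely Decr1, the mitochondrial dienoyl-CoA reductase, at 383, 342 and 322 CPM against 447, 416 and 494 CPM (0.37 ± 0.17). Close behind were Acaa1a, the peroxisomal thiolase (0.35 ± 0.16), and Crot, which moves medium-chain acyl groups out of peroxisomes (0.40 ± 0.19). Without mouse 322 the list's median was 0.048, and mouse 265 at 0.13 was level with the Nts-/- mice at 0.11 to 0.15. In fed livers this list's median was -0.06. Cpt1a, the gate to mitochondrial oxidation, stood at 800.2, 839.7 and 631 CPM against 714, 922 and 845 CPM (0.13). Ppara, the nuclear receptor behind these genes, stood lower at 114, 97.9 and 102 CPM against 87.7, 81.6 and 95.6 CPM (-0.25 ± 0.21). The 7 ketone body genes had a median of 0.08 and the 18 tested lipid droplet genes of -0.05, with no unadjusted p under 0.05 in either.

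Lipogenesis and triglyceride synthesis had a median of -0.12 over 21 genes, none with an unadjusted p under 0.05 and none without overlap. Srebf1 stood at 37.9, 30.1 and 18.2 CPM against 28.5, 17.8 and 24.5 CPM (-0.28), and Fasn at 88.1, 110.0 and 54.3 CPM against 62.3, 51.9 and 98.6 CPM (-0.24). The spread among the Nts+/+ mice was as wide as the distance between the groups. Cholesterol synthesis and uptake had a median of -0.08 over 28 genes in fasted livers, against 0.49 in fed livers, again with no unadjusted p under 0.05 in fasted livers. The 1 member whose groups did not overlap was Lss, lanosterol synthase, at 20.6, 20.6 and 17.1 CPM against 16.5, 16.3 and 14.3 CPM (-0.31 ± 0.23).

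Bile acid synthesis and transport had a median of -0.01 over 24 genes. Cyp7a1, the rate-limiting enzyme of bile acid synthesis, ranged too widely to compare, at 121, 261 and 77.0 CPM against 57.9, 148 and 50.9 CPM (-0.84, interval -3.20 to 1.52). Slco1a1, an organic anion uptake transporter, was the 1 gene of this list with an unadjusted p under 0.05, at 18.5, 4.86 and 53.3 CPM against 5.82, 3.42 and 1.09 CPM (-2.95, interval -5.59 to -0.32). Without mouse 322 its difference was -1.80. The 20 apolipoprotein and lipoprotein assembly genes had a median of 0.17, with 15 above 0, 1 without overlap and none at an unadjusted p under 0.05. The median was 0.073 without mouse 295 and 0.092 with the length trend removed.

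Genes of amino acid catabolism had a median of 0.06 over 37 genes, and 3 of them had an unadjusted p under 0.05, all higher. Bcat2 and Bckdhb both act on branched-chain amino acids, and Hgd on homogentisate from tyrosine. Bckdha and Dbt, of the same branched-chain pathway and named after their values were seen, differed by 0.03 and -0.05. Bcat2 stood at 14.8, 16.5 and 14.1 CPM against 20.9, 20.8 and 17.2 CPM (0.38 ± 0.13), and Bckdhb at 69.7, 65.7 and 50.5 CPM against 88.6, 74.1 and 74.0 CPM (0.35 ± 0.14, or 0.22 without mouse 322). Hgd stood at 687, 620.3 and 567 CPM against 637, 813 and 868 CPM (0.31 ± 0.14), with overlap. The list as a whole varied most within the Nts+/+ group: relative to the mean of the Nts+/+ mice, its median level was 0.39 in mouse 265 and -0.37 in mouse 322 on the log2 scale, with the 3 Nts-/- mice between them at -0.02 to 0.17. Urea cycle genes showed the same order of Nts+/+ mice, 0.28 in mouse 265 and -0.40 in mouse 322, and a median difference of 0.00 over 13 genes. Cps1 stood at 6690.1, 4471 and 3290.4 CPM against 3266, 5991 and 4849.7 CPM (-0.03), and Ass1 at 5712, 3829.9 and 2041 CPM against 2943, 3912 and 3431 CPM (-0.17).

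Growth hormone acts on the liver to make IGF1, which circulates in a complex with the acid-labile subunit Igfals and binding proteins. Igf1 stood at 443, 396 and 420.3 CPM in Nts+/+ livers and at 376, 300.2 and 236 CPM in Nts-/- livers, 0.725 times the Nts+/+ level (-0.46 ± 0.19, interval -0.87 to -0.05). Igfals stood at 88.3, 77.0 and 97.9 CPM against 67.8, 55.8 and 61.1 CPM (-0.51 ± 0.16, interval -0.86 to -0.16). Neither overlaps between the groups, and in fed livers the differences were 0.03 and -0.08. Both were lower whichever mouse was left out, by -0.66 to -0.31 for Igf1 and by -0.59 to -0.42 for Igfals. The growth hormone and IGF list had a median of -0.12 over 20 genes, with these 2 alone at an unadjusted p under 0.05 and 3 genes below without overlap. With the length trend removed the median was -0.05 and 1 gene lay below without overlap, and leaving out 1 mouse moved the median between -0.19 (without mouse 284) and -0.04 (without mouse 290). The list's median level did not overlap between the groups, at -0.03 to 0.01 in Nts+/+ and -0.18 to -0.09 in Nts-/- mice. This held for 1 other pathway list, the proteasome, which lay above, while 34 pathway lists overlapped. Of all tested genes, 5.29% lay above and 6.88% below without overlap. The median level of all tested genes also lay below without overlap, at -0.0082 to -0.0065 in Nts+/+ and -0.025 to -0.013 in Nts-/- mice. The lack of overlap alone therefore does not set this list apart. Igfbp1, the fasting-induced binding protein, stood at 87.8, 331 and 373 CPM against 518, 376 and 382 CPM (0.69, interval -0.99 to 2.37), and without mouse 265, the low one, its difference was 0.27. Igf1 lies 14.5 Mb from Nts on chromosome 10, and the clock gene Cry1, described below, lies 17.3 Mb from it. Within 20 Mb of Nts, 9 of 152 tested genes had an unadjusted p under 0.05, 5 higher and 4 lower (5.92%, against 4.96% of all genes).

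Genes that respond to glucocorticoids, which rise in a fast, had a median of -0.14 over 21 genes, with 5 above 0. Fkbp5, an FK506-binding protein induced through the glucocorticoid receptor, stood at 92.1, 75.0 and 112 CPM against 56.3, 67.6 and 51.3 CPM (-0.67 ± 0.24), without overlap, and in fed livers the difference was -0.52. It was the 1 member with an unadjusted p under 0.05. By mouse, the list was lowest in mice 284 and 290, at -0.40 and -0.46, while mouse 295 at -0.03 lay among the Nts+/+ mice, and without mouse 295 the list's median was -0.42. Of 20 tested hepatokine genes (median -0.10), Gdf15, a stress-induced circulating factor, had an unadjusted p under 0.05, at 11.0, 4.56 and 14.4 CPM against 4.31, 3.07 and 4.80 CPM (-1.29, interval -2.47 to -0.10). Angptl8, which is made after feeding, stood at 34.1, 13.5 and 11.2 CPM against 6.83, 5.50 and 11.0 CPM (-1.30 ± 0.62), and without mouse 265 its difference was -0.65. Fgf21, the fasting hepatokine downstream of Ppara, was close in all mice, at 25.4, 21.5 and 20.3 CPM against 21.5, 18.2 and 19.9 CPM (-0.17, interval -1.01 to 0.66). Angptl4, the fasting-induced inhibitor of lipoprotein lipase, stood at 194, 250.4 and 266 CPM against 222, 256 and 273 CPM (0.08).

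**Figure D4:**
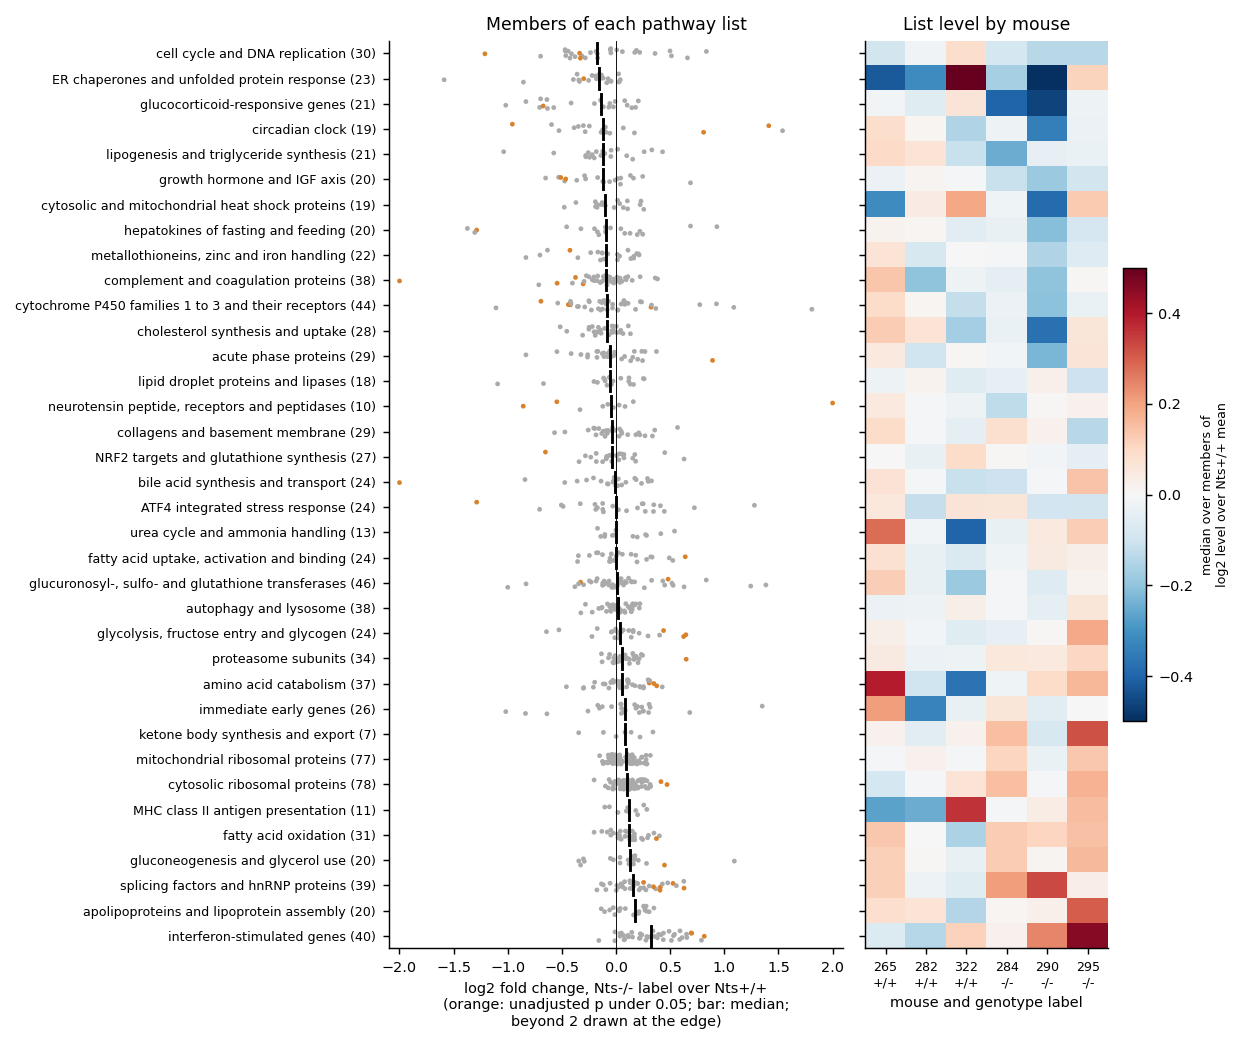
Left, log2 fold change (Nts-/- label over Nts+/+, fasted) of each tested member of the 36 pathway lists, with the number tested in brackets, ordered by the median (black bar); orange points have an unadjusted p under 0.05, and 3 points beyond 2 are drawn at the edge. Right, median level of each list by mouse relative to the mean of the Nts+/+ mice on the log2 scale, where interferon-stimulated genes are highest in mouse 295 and several lists differ most between mice 265 and 322 of the same group.

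Interferon-stimulated genes had the highest median of the 36 lists, 0.32 over 40 genes, with 37 above 0. They encode antiviral effectors and sensors, and many carry in their promoters the paired GAAA motif that interferon regulatory factors bind. Against that median, only 3 had an unadjusted p under 0.05, all higher, and 3 did not overlap, a share close to that of all genes. Rsad2 (viperin, chr12:26442753-26456452) stood at 7.16, 7.44 and 5.72 CPM against 8.89, 9.44 and 14.3 CPM (0.69 ± 0.19). Usp18, which restrains interferon signalling, stood at 6.31, 8.10 and 5.67 CPM against 7.51, 11.0 and 16.6 CPM (0.81 ± 0.31), with overlap. Ifi27l2a stood at 1.33, 0.859 and 1.79 CPM against 1.56, 2.90 and 2.06 CPM (0.70 ± 0.31), but in fed livers its difference was -1.04. Cxcl10, a chemokine named here after its values were seen, stood at 1.09, 1.75 and 2.22 CPM against 2.66, 2.42 and 3.00 CPM (0.65 ± 0.31). By mouse the list was at -0.14 to 0.11 in Nts+/+ livers and at 0.02, 0.25 and 0.46 in mice 284, 290 and 295. Without mouse 295 the difference of Rsad2 was 0.44 and that of Usp18 0.46, and without mouse 290 that of Ifi27l2a was 0.45. The list's median was 0.13 without mouse 295 and 0.53 without mouse 284. In fed livers the median was 0.08. Fasting lowered 37 of the 40 genes in Nts+/+ livers at an adjusted p under 0.05, against 1270 of all 13812 tested genes. That comparison shares the 3 Nts+/+ fasted mice with this one.

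The promoters of Rsad2 and Cxcl10 are shown because the motif can be read in them. Within 250 bases before the start site, GAAA followed by any 2 bases and a further GAAA, on either strand, was found in 19 of the 29 interferon-stimulated genes that have a promoter in the table (65.5%), against 936 of 27025 genes (3.46%). The sequences are from RefSeq (GRCm38.p6, minus strand for both genes, written 5′ to 3′ in the direction of the gene), and capitals mark the motif, which in Rsad2 reads on the opposite strand and ends 110 bases before the start site. The match is a description of the letters only.
Rsad2, chr12:26456519-26456618: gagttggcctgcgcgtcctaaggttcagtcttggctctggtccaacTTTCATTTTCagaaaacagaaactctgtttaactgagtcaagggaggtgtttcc
Cxcl10, chr5:92349049-92349139: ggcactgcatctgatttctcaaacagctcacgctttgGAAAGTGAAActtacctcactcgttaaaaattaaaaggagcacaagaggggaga

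The MHC class II list had a median of 0.12 over 11 genes and no unadjusted p under 0.05. Proteins of complement and coagulation had a median of -0.09 over 38 genes, with 4 at an unadjusted p under 0.05, all lower, and 5 below without overlap. Besides Klkb1 and C9, a pore-forming component named after its values were seen (-0.37 ± 0.17), these were Masp1, a protease of the lectin pathway, at 64.1, 49.4 and 44.0 CPM against 32.7, 37.8 and 37.4 CPM (-0.54 ± 0.21), and C3, the central complement component, at 9614, 9638 and 9284 CPM against 7105, 7488 and 8523 CPM (-0.30 ± 0.14). Acute phase proteins had a median of -0.06 over 29 genes. Il1rn, the secreted antagonist of the interleukin 1 receptor, was the 1 with an unadjusted p under 0.05, at 6.64, 8.16 and 7.10 CPM against 14.2, 9.48 and 16.9 CPM (0.89 ± 0.30). Il1rn was higher and the receptor Il1r1 lower in the same livers, each without overlap, but both were named for a small p. A link between them was not tested. Hamp, hepcidin, stood at 740.5, 889 and 389.7 CPM against 1223, 617 and 423 CPM (0.16, interval -0.67 to 1.00).

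Clock genes had a median of -0.12 over 19 genes, with 5 above 0, and as a list were lowest in mouse 290, at -0.34. Dbp, Nr1d2 and Cry1, all outputs or parts of the circadian oscillator, were the 3 with an unadjusted p under 0.05. Dbp stood at 2.37, 1.65 and 1.06 CPM against 2.34, 1.86 and 8.83 CPM (1.41), Nr1d2 at 16.7, 18.8 and 16.2 CPM against 15.3, 25.3 and 49.4 CPM (0.81), and Cry1 at 47.1, 32.8 and 32.0 CPM against 32.2, 16.6 and 9.12 CPM (-0.96). In each the extreme value was that of mouse 295, and without it the differences were 0.33, 0.24 and -0.61. Nr1d1, named after its values were seen, was also highest in mouse 295, at 12.8, 10.7 and 7.16 CPM against 3.21, 27.5 and 57.2 CPM (1.54 ± 0.91). The times at which the mice were killed are not given in the sources used here, and their part in these values was not tested. The E-box CACGTG, through which the clock activators bind, was found in 5 of 17 promoters of the list (29.4%), against 1854 of 27025 (6.86%), and is shown in capitals for Cry1 as an example, 54 bases before the start site (RefSeq, GRCm38.p6, minus strand).
Cry1, chr10:85185063-85185162: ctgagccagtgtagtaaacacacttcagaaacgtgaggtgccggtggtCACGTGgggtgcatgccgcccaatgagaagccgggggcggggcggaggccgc

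Stress pathways gave small medians. Chaperones and the unfolded protein response of the endoplasmic reticulum had a median of -0.16 over 23 genes, with 4 above 0, and Atf6, a sensor of that response, was the 1 gene at an unadjusted p under 0.05, at 76.5, 74.9 and 71.7 CPM against 57.1, 60.9 and 63.3 CPM (-0.30 ± 0.12). The list stood at 0.53 in mouse 322 and at -0.32 and -0.42 in the other Nts+/+ mice, and without mouse 322 its median was 0.21. Heat shock proteins had a median of -0.10 over 19 genes, but 0.089 without mouse 322 and -0.23 without mouse 295. The ATF4 response had a median of 0.00 over 24 and NRF2 targets of -0.04 over 27, where Cbr1 was the 1 gene at an unadjusted p under 0.05. The 26 tested immediate early genes had a median of 0.08 and none at that level. Metal handling had a median of -0.09 over 22 genes, with Slc39a4, a zinc importer, at 49.1, 46.9 and 56.9 CPM against 44.8, 35.3 and 33.9 CPM (-0.43 ± 0.19). Mt1, metallothionein 1, stood at 334, 738 and 88.2 CPM against 617, 246 and 199 CPM (-0.13, interval -2.22 to 1.97).

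In drug and steroid metabolism, Nr1i3 (CAR, chr1:171213970-171220701), the xenobiotic-sensing receptor, stood at 229.9, 226 and 219 CPM in Nts+/+ fasted livers and at 301, 307 and 236 CPM in Nts-/- fasted livers (0.32 ± 0.15). In fed livers it went the other way, at 191, 148 and 139.5 CPM against 91.9, 93.4 and 78.9 CPM (-0.86). In neither state do the groups overlap. The difference between these differences was 1.18, with an adjusted p of 0.888 in edgeR and of 0.000519 in DESeq2. Over all genes, that difference between fasted and fed livers passed an adjusted p of 0.05 for 0 genes in edgeR (0.00%) and 2 in DESeq2, and 663 genes (4.80%) had an unadjusted p under 0.05 in edgeR. The cytochrome P450 list had a median of -0.09 over 44 genes, with 1 higher (Nr1i3) and 3 lower at an unadjusted p under 0.05. The lower ones included Cyp2c38, at 138, 167 and 188 CPM against 135, 108 and 126 CPM (-0.42 ± 0.17), and Cyp2f2, at 549.8, 368 and 356 CPM against 251, 329 and 358 CPM (-0.44 ± 0.20). The other was Cyp2c69, named after its values were seen (-0.69 ± 0.31). Reads of the Cyp2c copies can be divided between paralogs. Conjugating transferases had a median of 0.01 over 46 genes, with Gstt2 higher (0.48 ± 0.16) and Ugt2b1 lower (-0.33 ± 0.14).

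Among the cell's general machinery, splicing factors and hnRNP proteins had a median of 0.16 over 39 genes, with 34 above 0, 6 at an unadjusted p under 0.05, all higher, and 9 above without overlap (23.1%, against 5.29% of all genes). Hnrnph1 stood at 31.1, 26.4 and 30.6 CPM against 45.5, 44.8 and 36.7 CPM (0.53 ± 0.18), Hnrnpa2b1 at 258, 187 and 195 CPM against 268, 296 and 286 CPM (0.41 ± 0.16), and Srsf9 at 12.95, 14.4 and 17.1 CPM against 18.1, 17.7 and 20.7 CPM (0.35 ± 0.14). In fed livers the differences of Hnrnph1 and Hnrnpa2b1 were -0.30 and -0.23, and the list's median was -0.04. With each library's trend on transcript length removed, the median in fasted livers was 0.20 and 12 members did not overlap. By mouse the list was highest in mice 284 and 290, at 0.21 and 0.33, whereas mouse 295 at 0.03 lay below mouse 265 at 0.12.

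Proteasome subunits were close together, with a median of 0.05 over 34 genes but 10 above without overlap (29.4%), and 7 once the length trend was removed, when the median was 0.015. Their levels by mouse were -0.03 to 0.05 in Nts+/+ and 0.05 to 0.10 in Nts-/- livers, so that the groups were almost in contact. The 1 gene at an unadjusted p under 0.05 was Psmb9, a subunit of the interferon-induced immunoproteasome, at 5.84, 6.11 and 6.94 CPM against 7.70, 9.27 and 12.5 CPM (0.65 ± 0.19, or 0.43 without mouse 295). The 78 cytosolic ribosomal protein genes had a median of 0.10, with 67 above 0, 10 above without overlap and 2 at an unadjusted p under 0.05 (Rps27a, 0.47, and Fau, 0.41 or 0.27 without mouse 265, which are fused to ubiquitin or a ubiquitin-like protein). The 77 mitochondrial ones had a median of 0.10 with 8 above without overlap and none at that level. Both medians were 0.03 with the length trend removed, and these genes are short. Autophagy and lysosome genes had a median of 0.02 over 38. Cell cycle and replication genes had a median of -0.18 over 30 tested of 36, with 3 lower at an unadjusted p under 0.05. These were Mcm7, a replicative helicase subunit, at 11.2, 11.7 and 13.04 CPM against 8.89, 10.6 and 9.12 CPM (-0.34 ± 0.14), Rrm1, a ribonucleotide reductase subunit, at 8.68, 9.12 and 9.33 CPM against 7.88, 7.97 and 5.86 CPM (-0.33 ± 0.15, or -0.19 without mouse 295), and Cdk1 (-1.21), whose difference was -0.37 without mouse 322. Collagen and basement membrane genes had a median of -0.04 over 29, with none at an unadjusted p under 0.05.

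Cell type content was read from the summed level of marker genes in each liver. Of the 18 lists, 17 overlapped between the groups. The hepatocyte sum, of which Alb made up 64.6%, was 162648 CPM ± 12402 in Nts+/+ and 153565 CPM ± 6100.0 in Nts-/- livers (mean ± SD of 3 mice), a ratio of 0.944. Pericentral markers, which mark hepatocytes around the central vein, summed to 13450.5 to 17569 CPM against 15908 to 18108 CPM, and periportal markers to 9348 to 15292 CPM against 10859 to 13170 CPM. Glul, glutamine synthetase of the innermost pericentral layer, stood at 799, 923 and 1188 CPM against 820.4, 1000.0 and 1087 CPM (0.00), and Cyp2e1 at 11889.8, 11664 and 9469.8 CPM against 12808, 10125 and 12309 CPM (0.09). Of the periportal list, 3 of 12 genes had an unadjusted p under 0.05, all lower: Cdh1, E-cadherin, at 16.8, 13.2 and 15.5 CPM against 10.1, 11.3 and 10.7 CPM (-0.50 ± 0.20), Ctsc (-0.39 ± 0.16) and Cyp2f2. Ctsc was at -0.19 without mouse 322 and Cyp2f2 at -0.22 without mouse 265. Of the 12 genes 4 lay above 0, and the list's median of -0.14 became 0.14 without mouse 265.

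**Figure D5:**
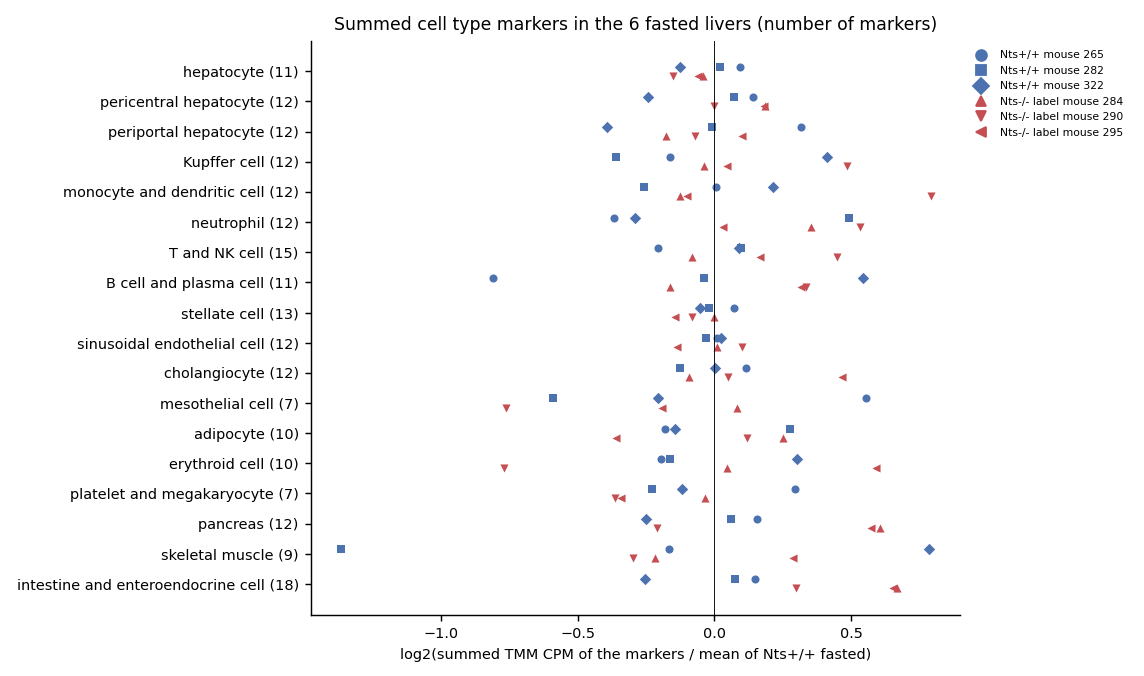
Summed CPM of the markers of each of 18 cell types in the 6 fasted livers, as log2 over the mean of the 3 Nts+/+ livers, with the number of markers in brackets; blue is Nts+/+, red the Nts-/- label and symbols mark mice. All lists overlap between the groups except the intestinal one, which is 94.3% Fabp2.

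Kupffer cell markers summed to 431, 377 and 642 CPM in Nts+/+ livers and to 471, 676 and 499 CPM in Nts-/- livers. Within them Marco, a scavenger receptor of macrophages, stood at 104 CPM in mouse 290 and at 5.22 to 15.6 CPM in the other 5 livers, and the difference of 2.03 became -0.16 without that mouse. Adgre1 (F4/80) was also highest in mouse 290, at 38.5 CPM against 10.4 to 22.1 CPM, but Cd163 was lowest there, at 8.14 CPM. Monocyte and dendritic markers were likewise highest in mouse 290, at 153 CPM against 73.9 to 102 CPM in the other 5, but Lyz2 made up 89.9% of this sum, and the median level of the list was highest in mouse 322, at 0.09, with mouse 290 at 0.04. Sums for T and NK cells were 8.16 to 10.0 CPM against 8.89 to 12.8 CPM, for B and plasma cells 43.4 to 111 CPM against 68.1 to 96.1 CPM, and for neutrophils 3.37 to 6.11 CPM against 4.44 to 6.28 CPM. Mzb1, a plasma cell chaperone, was the 1 lymphoid marker at an unadjusted p under 0.05, at 0.427, 0.397 and 0.597 CPM against 0.825, 1.17 and 0.992 CPM (1.05 ± 0.34).

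Stellate cell markers summed to 413 to 451 CPM against 389 to 429 CPM, and sinusoidal endothelial markers to 301 to 313 CPM against 280.0 to 331 CPM. Cholangiocyte markers summed to 37.8 to 44.7 CPM against 38.7 to 57.0 CPM, with Sox9 lower, at 4.84, 2.21 and 2.71 CPM against 1.69, 1.95 and 1.91 CPM (-0.79 ± 0.30, or -0.42 without mouse 265), and Krt23 higher, at 4.27, 5.22 and 2.22 CPM against 9.62, 7.10 and 14.5 CPM (1.43 ± 0.64). Erythroid markers varied with the mouse, at 349 to 492 CPM in Nts+/+ livers and 235 to 603 CPM in Nts-/- livers. The sums of mesothelial, adipocyte, platelet, pancreatic and skeletal muscle markers overlapped too, with 8 of 12 pancreatic and 6 of 9 muscle markers at 0 counts in all 6 fasted livers. The median level of the 3 tested platelet markers did not overlap, however, at -0.07 to 0.10 in Nts+/+ and -0.29 to -0.10 in Nts-/- livers. Pf4 (-0.60 ± 0.39) and Ppbp (-0.50 ± 0.57), chemokines stored in platelets, lay below without overlap, and no fasted liver held more than 0.661 CPM of either.

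The intestinal list was the 1 that did not overlap, at 112 to 148 CPM against 164 to 212 CPM, but it rested on 1 gene. Fabp2, the intestinal fatty acid binding protein, made up 94.3% of the sum and stood at 141, 134 and 106 CPM against 197, 148 and 203 CPM (0.52 ± 0.24). Lgals4, galectin 4, stood at 6.59, 5.98 and 5.83 CPM against 14.9, 15.9 and 6.50 CPM (1.01 ± 0.65). These were the 2 tested genes of the list, and their median level did not overlap either, at -0.16 to 0.12 in Nts+/+ and 0.38 to 0.92 in Nts-/- livers. Of the 18 genes of this list, 9 had 0 counts in all 6 livers. Among them were Cdx1, Cdx2, Sis and Chga and the peptide genes Gcg, Cck and Pyy, which lie beside neurotensin in enteroendocrine cells. Vil1, Alpi, Muc2, Reg3b, Reg3g, Chgb and Sct, also on this list, were not among these 9, but had too few counts to test. The source of the 12, 4 and 18 Nts counts in the Nts-/- livers was not tested.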

How the data were processed

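RNA of 12 livers, 1 library per mouse, was sequenced. The authors deposited 1 table of expected counts per gene, not scaled between libraries; the submitters' processing notes name Trimmomatic, RSEM and GRCm38 without versions. The counting strand is not given in the sources used here. Expected counts were rounded, genes were kept by filterByExpr, and libraries were scaled by TMM. All 12 mice entered 1 model with 4 group means in edgeR 4.0.16 (R 4.3.3, robust quasi-likelihood test, Benjamini-Hochberg adjustment over 13812 genes, threshold 0.05), where the fasted genotype difference and its difference from the fed one were tested. The script was tested on simulated data. Mice were separate animals, so the spread is between animals.

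Named genes were 26 preset genes, the 12 higher and 12 lower genes with the smallest p (mean of at least 1 CPM, with a symbol and Entrez ID), genes past the threshold in edgeR or DESeq2, and the 3 members of each list with the smallest p. Some of the preset genes are not reported here. The members and lists were chosen with earlier results of these data known. List levels by mouse used log2(CPM + 0.5). Alternatives were DESeq2 1.42.0, other scalings and filters, a transcript length correction, the fasted libraries fitted on their own and leaving out each mouse. Counts of 3 per library set the floor, and no interval was computed for a bound against it.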

Additional observations from a re-analysis of the deposited data

Results flagged for a closer look

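Nr1i3, the receptor CAR, was the 1 result set aside because the genotype difference ran in opposite directions in fasted and fed livers, with no overlap in either. The difference between the differences was 1.18 on the log2 scale. The lack of overlap in opposite directions was the rule that picked this gene from the 195 named genes, so it adds no evidence of its own. How many of all tested genes meet that rule was not counted. It did not pass the adjustment in edgeR (adjusted p = 0.888), whereas it did in DESeq2 (adjusted p = 0.000519). The cause was not tested.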

How the results depend on the processing

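No paired analysis was possible because the labels give mouse numbers that are not shared between groups. They do not say which mice were littermates, so no block by litter could be fitted. In fasted livers 0 genes passed an adjusted p of 0.05 except under DESeq2 (1, Med12l) and with only the 6 fasted libraries (1, Klkb1), and between 510 and 887 genes had an unadjusted p under 0.05. For the difference between fasted and fed livers, DESeq2 called 2 genes (Nr1i3 and Gm26675), leaving out 1 mouse called 0 to 1 (Gm44002, without fed Nts+/+ mouse 323), and the number at an unadjusted p under 0.05 ran from 432 without fed mouse 277 to 1629 without fed mouse 319. Some log2 differences changed sign when 1 mouse was left out: Ppargc1a ran from -0.069 to 0.83, Pck1 from -0.014 to 0.40, G6pc from -0.28 to 0.42, Angptl4 from -0.051 to 0.17, Fasn from -0.56 to 0.0067, Hamp from -0.38 to 0.45, Mt1 from -0.81 to 0.76, Glul from -0.13 to 0.17, Cyp2e1 from -0.0038 to 0.19, Cps1 from -0.25 to 0.27, Ass1 from -0.48 to 0.22 and Marco, with the large main difference of 2.03, from -0.16 to 2.54. With the length trend removed Hamp was -0.049 and Cps1 0.0020. Glul was 0.0057 under RLE scaling, 0.0051 under upper-quartile scaling, 0.0043 in DESeq2 and 0.013 with at least 10 counts in every library. Of the list medians under the alternatives, 33 moved by more than the spread between mice and 721 did not. The cause was not tested.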
